A study of Homo sapiens with 16 samples.

Results

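The 9 genes described here build the tight junction and the apical-basal polarity machinery of epithelial cells. They are CLDN1, CLDN4, CLDN7, OCLN, TJP1, CRB3, PARD3, PARD6B and LLGL2, taken by symbol from the 26229 genes listed in the count table, and all 9 were abundant enough to be tested. RNA was sequenced from 16 libraries of 2 human lines grown in DMEM with fetal calf serum: A431, an epidermoid carcinoma line, and HaCaT, an immortalised keratinocyte line. Each line had 1 library with a control siRNA (siCTRL), 3 with siRNA against YAP1 (siYAP), 1 with an empty expression vector and 3 with YAP5SA, a constitutively active YAP1 mutant. The siRNA cells were transfected on 2 occasions 24 h apart, with no expression vector, and RNA was taken 48 h after the second. For the vector cells, which received no siRNA, no such time is given in the labels. YAP1, the protein reduced or added, is the transcriptional co-activator restrained by the Hippo kinases, and it acts through TEAD factors. The comparisons ask whether mRNA levels of these genes moved when YAP was lowered or made constitutively active.

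Claudins such as CLDN1, CLDN4 and CLDN7 are membrane proteins that form the sealing strands of the tight junction and set which ions pass between cells. Occludin (OCLN) lies in the same strands, and ZO-1 (TJP1) ties them to actin. The position of the junction is set by opposing complexes: CRB3 belongs to the apical Crumbs complex, PARD3 and PARD6B are scaffolds of the PAR complex with atypical protein kinase C, and LLGL2 is a basolateral protein that opposes it. In skin, tight junctions lie in the granular layer. Apical complexes feed into Hippo signalling in columnar epithelia, whereas the study reports no CRB3 expression in squamous epithelia. That report rests on Human Protein Atlas images of protein in human tissue, whereas the values here are mRNA levels in cultured lines.

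The promoters of the 3 genes that passed the test against their own control are shown so that their regulatory sequence can be read beside the values. Promoter sequence was taken from RefSeq (GRCh38.p14), from 250 bases before to 50 after the start site, and 6 of the 9 genes were matched; PARD3, PARD6B and LLGL2 were not. The OCLN promoter is at chr5:69492297-69492596 (plus strand), with capitals at its 1 match to the E-box letters CAGGTG, read by ZEB and SNAIL factors, 33 bases before the start. The CLDN4 promoter is at chr7:73830746-73831045 (plus strand) and the CLDN7 promoter at chr17:7263164-7263463 (minus strand), and neither has a match.
OCLN: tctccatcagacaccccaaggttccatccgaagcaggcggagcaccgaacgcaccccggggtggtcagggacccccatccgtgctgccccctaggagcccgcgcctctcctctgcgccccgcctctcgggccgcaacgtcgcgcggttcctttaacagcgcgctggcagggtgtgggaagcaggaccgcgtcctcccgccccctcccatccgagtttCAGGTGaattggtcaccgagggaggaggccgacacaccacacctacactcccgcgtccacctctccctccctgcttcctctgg
CLDN4: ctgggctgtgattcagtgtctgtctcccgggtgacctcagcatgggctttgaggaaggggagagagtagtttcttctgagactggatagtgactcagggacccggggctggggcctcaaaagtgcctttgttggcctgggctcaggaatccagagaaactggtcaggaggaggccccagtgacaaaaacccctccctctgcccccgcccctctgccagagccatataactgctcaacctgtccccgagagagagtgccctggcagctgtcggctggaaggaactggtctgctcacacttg
CLDN7: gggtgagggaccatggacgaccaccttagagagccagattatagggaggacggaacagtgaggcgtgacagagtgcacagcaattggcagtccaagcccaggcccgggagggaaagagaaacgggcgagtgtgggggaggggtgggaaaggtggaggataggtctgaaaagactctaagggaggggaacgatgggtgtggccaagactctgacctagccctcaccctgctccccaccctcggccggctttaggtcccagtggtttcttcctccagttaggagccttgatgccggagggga

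Searched on both strands, the E-box letters CAGGTG (read as CACCTG on the other strand) were in 3 of the 6 promoters, namely OCLN, TJP1 and CRB3, against 20.6% of 35116 promoters of the same length. CRB3 held 5 matches. The TEAD core letters GGAATG (read as CATTCC on the other strand) were in 0 of the 6, against 14.0% of all promoters. These are letter matches in a short window and carry no information on which factor bound there.

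Short sequences in 3' untranslated regions are shown for a second reason: the letters TTCTTAA and also CTTCTTA were linked by earlier work on these same libraries with genes that were lower with siYAP. The choice of letters therefore rests on these data, and their part in the changes was not tested here. Of 10638 tested genes with a 3' untranslated region in the GENCODE annotation, 27.2% held a match, and so did 4 of the 9 genes: OCLN with 2, and TJP1, PARD3 and PARD6B with 1 each. The windows below give the first match in OCLN and in LIN7C, CDC42 and CXADR, junction and polarity genes described later, with matching letters in capitals. All 4 were lower with siYAP, as were the genes the letters were chosen from, so these matches are no independent evidence. CLDN7, which passed as lower with siYAP in HaCaT, had 0 matches, and TJP1, PARD3 and PARD6B did not pass with siYAP. The share of 27.2% takes no account of length, and the regions of OCLN, LIN7C and CXADR have 4433, 4073 and 4408 bases.
OCLN: aaagaggtttTTCTTAAataataaagatca
LIN7C: tacttttacaTTCTTAAtctttttttagaa
CDC42: aatgcagactCTTCTTAAgtgttaataggg
CXADR: tatgaaatgaCTTCTTAAatatttagttga

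The libraries held 18.1 to 46.8 M gene-assigned read pairs (median 26.6 M). Levels are given as CPM, the counts of a gene per 1 M assigned pairs, after TMM scaling. YAP1 itself was at 5.04 to 6.99 CPM in the A431 siYAP libraries against 94.2 CPM with siCTRL, and at 21.6 to 23.2 against 254 CPM in HaCaT. With YAP5SA it was at 1494 to 3244 CPM against 124 CPM in A431, and at 7546 to 22243 against 423 CPM in HaCaT, the counts not separating mutant from endogenous transcript. EGFR, known for amplification in A431, was at 749.6 to 1357 CPM there and at 297 to 557 CPM in HaCaT. All 5 keratinocyte markers were found, with a summed level of 1881 to 6203 CPM over all libraries, whereas immune, fibroblast and endothelial markers summed to at most 3.65, 27.9 and 59.1 CPM. The adherens junction genes CDH1, CTNNB1 and CTNNA1 summed to 912 to 1443 CPM and 5 mesenchymal genes to 30.8 to 205 CPM. YAP5SA replicate 1 of A431 and replicate 2 of HaCaT stood apart from their triplicates in read counts, and where leaving one of them out changed a call among the 9 genes, the value without it is given beside the result. Each control is a single library, so the spread between control cultures could not be measured; p-values rest on the spread within the 4 triplicates, which the labels do not say came from separate cultures and the study's methods call biological.

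The 9 genes spanned a wide range of abundance (plot of levels by library). Per kilobase of transcript, so that genes of different length can be compared, CLDN1 was the most abundant in every A431 group and in both HaCaT siRNA groups, at 651 CPM per kb with siCTRL in A431 and 274 in HaCaT. In the HaCaT vector groups CLDN7 came first, with 84.6 CPM per kb with the empty vector and 96.8 with YAP5SA, and CLDN1 had 46.2 and 46.5. CRB3 and LLGL2 were the least abundant, except in HaCaT siYAP, where CRB3 was lowest and CLDN4 and LLGL2 both had 13.6 CPM per kb. Fewer cells expressing a gene and less RNA per cell cannot be told apart in these bulk libraries.

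**Figure D1:**
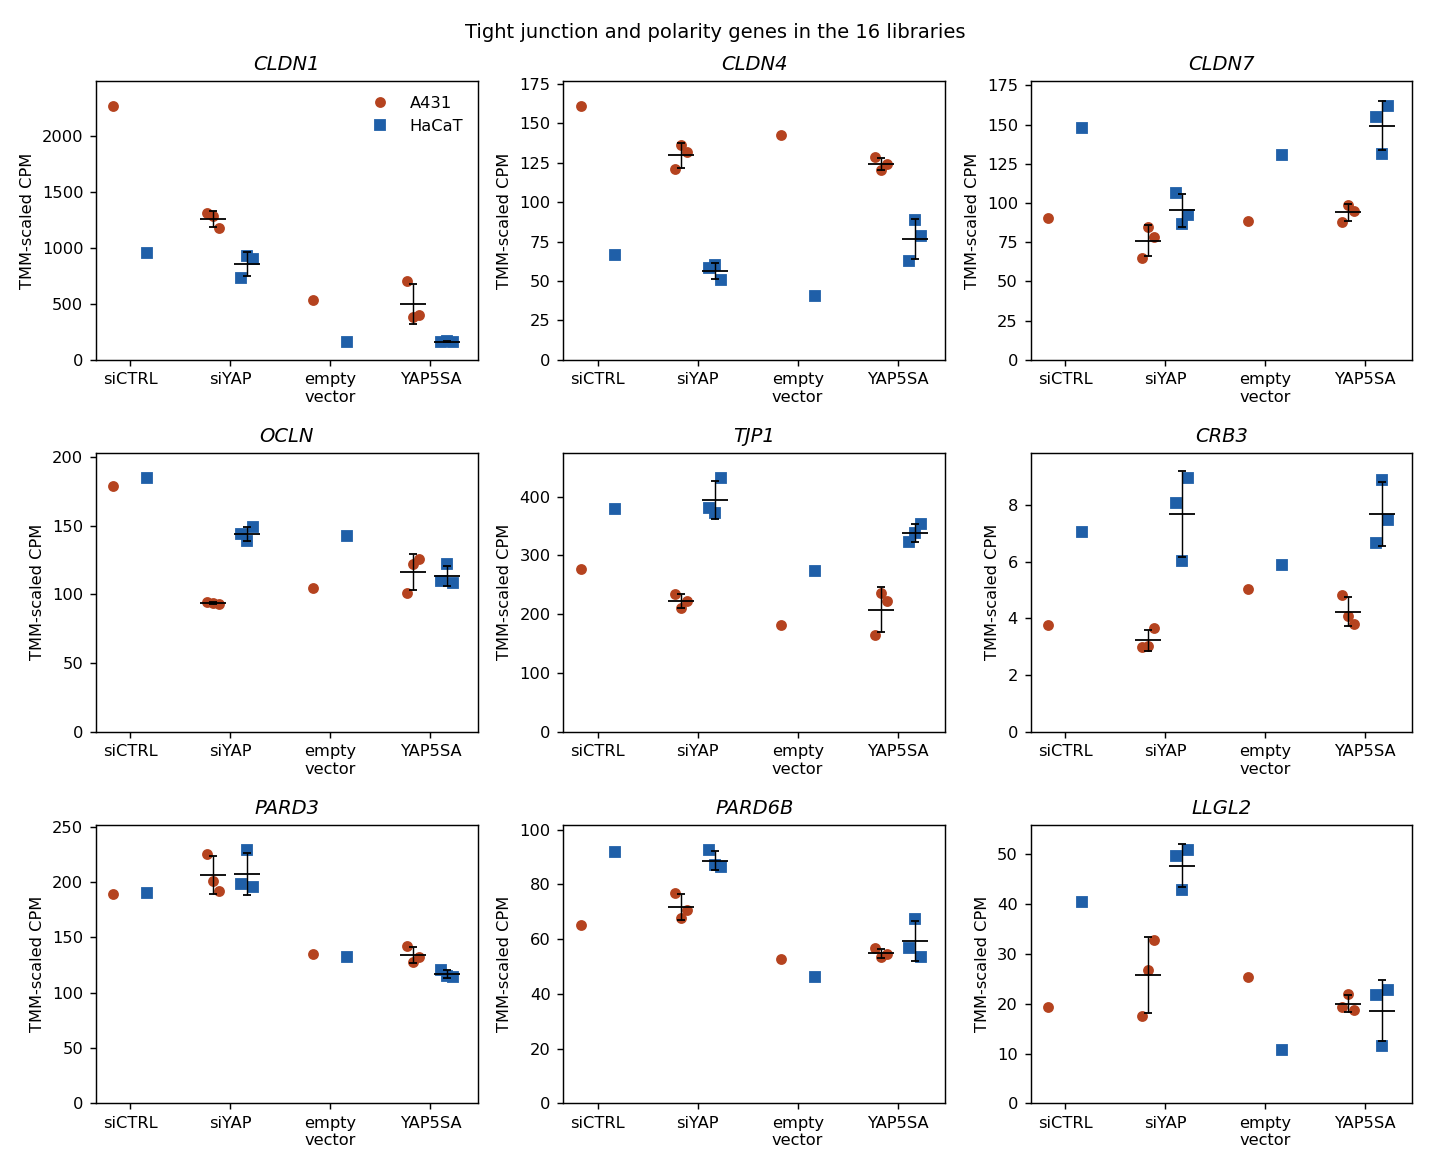
TMM-scaled CPM (linear axis from 0) of the 9 genes in the 16 libraries, A431 as circles and HaCaT as squares, with bars at the mean ± SD of each triplicate; control groups are 1 library each. CLDN1 was at 157 to 168 CPM in HaCaT YAP5SA and at 732 to 932 CPM in HaCaT siYAP, and the empty vector library of each line lay near its YAP5SA libraries.

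With siYAP, OCLN in A431 cells and CLDN7 in HaCaT cells were lower than in the single siCTRL library of the line. A gene was said to pass when its FDR (Benjamini-Hochberg over the 14673 tested genes, edgeR quasi-likelihood test) was under 0.05 and its logCPM above 1. In A431 1 of the 9 genes passed, beside 5.6% of all tested genes, and in HaCaT 1 of 9, beside 5.67%. Over both lines 2 of 9 passed, OCLN and CLDN7, both lower, beside 13% of tested genes. The median log2 fold change of the 9 was -0.25 in A431 and -0.05 in HaCaT, against 0.03 in both lines over all tested genes.

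OCLN was at 179 CPM with siCTRL in A431 and at 94.2, 93.6 and 93.2 CPM in the 3 siYAP libraries. In HaCaT it was at 185 CPM with siCTRL and at 144, 139 and 149 CPM with siYAP. All 6 siYAP libraries lay below the control of their line. The log2 fold change was -0.93 in A431 (SE 0.13, FDR 0.00202 by edgeR), or 1.91-fold lower, and -0.64 over both lines (SE 0.09, FDR 0.000804). In HaCaT it was -0.36 (SE 0.13, FDR 0.137), and the difference between the lines did not pass either (0.57, SE 0.19, FDR 0.264). The A431 empty vector library, at 105 CPM, also lay far below siCTRL, and with both controls of the line pooled the A431 change was -0.60 (FDR 0.145) and that over both lines -0.39 (FDR 0.0532), so neither passed. OCLN counts were fractional in 16 of 16 libraries, as happens where reads are shared with near-identical sequence elsewhere, so the level of OCLN carries that uncertainty.

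CLDN7 was at 148 CPM with siCTRL in HaCaT and at 107, 86.8 and 92.3 CPM with siYAP. In A431 it was at 90.3 CPM with siCTRL and at 65.0, 84.8 and 78.3 CPM with siYAP. Again every siYAP library was below its control. The log2 fold change was -0.63 in HaCaT (SE 0.17, FDR 0.0398), -0.25 in A431 (SE 0.17, FDR 0.42) and -0.44 over both lines (SE 0.12, FDR 0.0277). The HaCaT call is close to its threshold: it was lost without HaCaT siYAP replicate 2 (FDR 0.0943) or 3 (0.0977), without A431 siYAP replicate 3 (0.062) and without A431 YAP5SA replicate 2 (0.0514) or 3 (0.0641). With each line fitted alone it did not pass either (edgeR FDR 0.0838). In the same HaCaT libraries the 6 markers of differentiated keratinocytes (KRT1, KRT10, IVL, TGM1, LOR and FLG) summed to 821 to 892 CPM with siYAP against 576 CPM with siCTRL. In A431 they summed to 48.2 to 50.7 against 25.2 CPM. The empty vector libraries were at 542 CPM in HaCaT and at 58.8 CPM in A431, so the A431 siYAP values lay between the controls of that line. In HaCaT the siYAP means of KRT1, KRT10 and TGM1 lay between siCTRL and the empty vector, and those of IVL and FLG above both. FLG was at a mean of 191 CPM with siYAP against 40.2 CPM with siCTRL in HaCaT. It was also higher with YAP5SA there, at a mean of 296 against 108 CPM with the empty vector. LOR had no count in any A431 library and at most 0.102 CPM in HaCaT, and KRT1 was at 0 in A431 with siCTRL and at most 0.241 CPM with siYAP. Their part in the changes of OCLN and CLDN7 was not tested.

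CLDN1 and CLDN4, the other claudins among the 9, lay below their controls in all siYAP libraries without passing. CLDN1 was at 2267 CPM with siCTRL and at 1309.6, 1288 and 1182 CPM with siYAP in A431, the widest gap among the claudins (log2 -0.85, SE 0.26, FDR 0.0721). In HaCaT it was at 954 CPM with siCTRL and at 732, 932 and 905 CPM with siYAP (log2 -0.16, SE 0.27, FDR 0.809). Without A431 YAP5SA replicate 1 the A431 value had an FDR of 0.00328, the value over both lines an FDR of 0.00489, and DESeq2 on all libraries gave 0.027 in A431. With both controls of a line pooled, however, the CLDN1 values were -0.15 in A431 (FDR 0.945), 0.62 in HaCaT (FDR 0.465) and 0.23 over both lines (FDR 0.717), so the direction turned in HaCaT and over both lines. CLDN4 was at 161 CPM with siCTRL and 121 to 136 CPM with siYAP in A431, and at 66.7 against 50.8 to 60.4 CPM in HaCaT, with log2 values of -0.31 (FDR 0.293) and -0.24 (FDR 0.474).

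The scaffold and the polarity genes did not pass with siYAP in either line. TJP1 was at 277 CPM with siCTRL and at 211 to 235 CPM with siYAP in A431, below the control in 3 of 3 libraries, whereas in HaCaT it was at 379.8 against 372 to 431.4 CPM, on both sides of it. PARD3 lay slightly above the control in all 6 siYAP libraries, at 192 to 225 CPM against 189 CPM in A431 and 195 to 229 against 190.3 CPM in HaCaT (log2 0.12 in both lines). PARD6B was at 67.8 to 77.0 against 65.0 CPM in A431 and at 86.5 to 92.6 against 91.8 CPM in HaCaT. LLGL2 was at 17.6, 26.8 and 32.9 CPM with siYAP in A431 against 19.4 CPM, its widest triplicate with siRNA, and at 42.8 to 50.9 against 40.4 CPM in HaCaT. CRB3, with the fewest reads (73 to 310 per library), was at 2.98 to 3.64 against 3.77 CPM in A431 and at 6.02 to 8.95 against 7.04 CPM in HaCaT.

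With YAP5SA, CLDN4 was higher than in the single empty vector library in HaCaT cells, and none of the 9 genes passed in A431 cells. In HaCaT 1 of 9 passed, beside 13.6% of all tested genes. In A431 0 of 9 passed with edgeR, 0 had an unadjusted p under 0.05 and 0 passed with DESeq2, but the share of all tested genes was also 0% (828 genes had an unadjusted p under 0.05, and 3 passed with DESeq2). YAP1 itself, with a log2 fold change of 4.36 in that comparison, did not pass either (edgeR FDR 0.197). A count of 0 there therefore does not show a lack of response. Over both lines 0 of 9 passed, beside 2.04% of tested genes, with CLDN4 alone at an unadjusted p under 0.05 and 0 passing with DESeq2; without HaCaT YAP5SA replicate 1 CLDN4 passed there (FDR 0.0226). The median log2 fold change of the 9 was 0.31 in HaCaT and -0.01 in A431, against 0.01 and 0.02 over all tested genes.

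**Figure D2:**
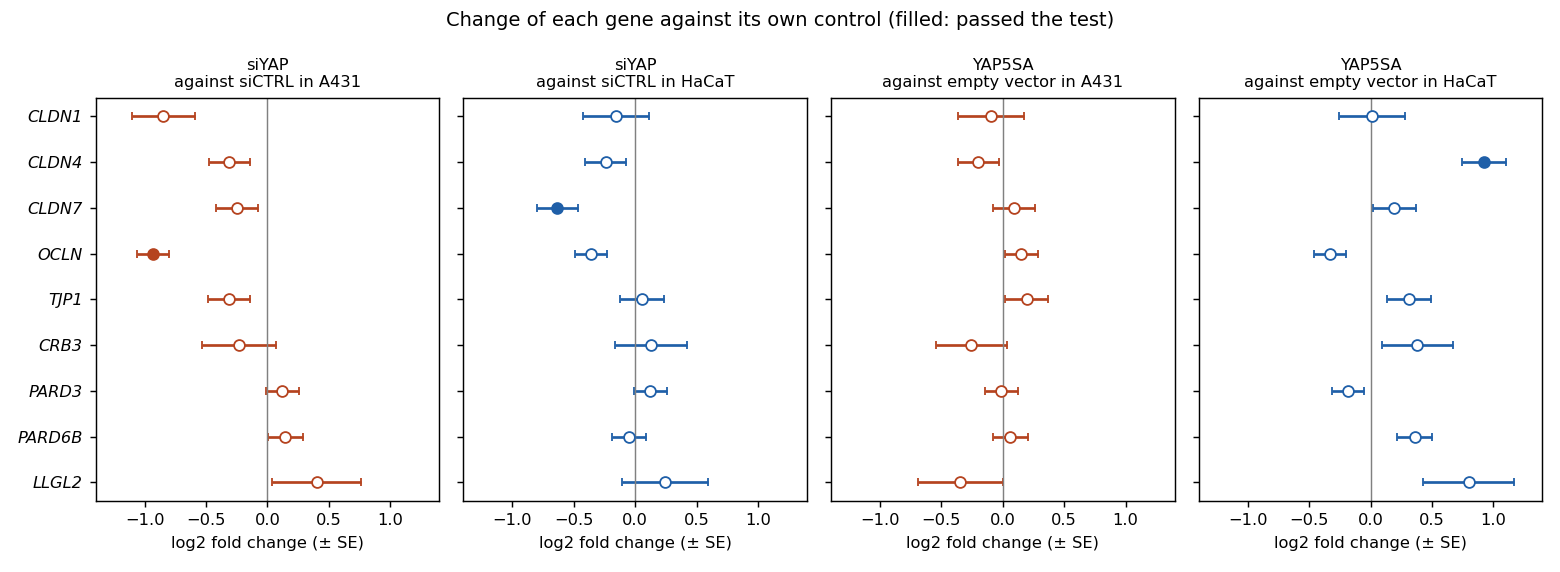
Log2 fold change (± SE, edgeR) of each gene against the single control library of its arm and line; filled symbols passed an FDR of 0.05. OCLN with siYAP in A431 (-0.93), CLDN7 with siYAP in HaCaT (-0.63) and CLDN4 with YAP5SA in HaCaT (0.92) are the filled points.

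CLDN4 was at 40.5 CPM with the empty vector in HaCaT and at 62.9, 88.6 and 78.3 CPM in the 3 YAP5SA libraries. In A431 it was at 143 CPM with the empty vector and at 128, 120.3 and 124 CPM with YAP5SA. The HaCaT libraries lay above their control and the A431 libraries below theirs. The log2 fold change was 0.92 in HaCaT (SE 0.18, FDR 0.00874), or 1.89-fold, and -0.20 in A431 (SE 0.17, FDR 0.852). Without HaCaT YAP5SA replicate 2, the highest of the 3, the log2 fold change of CLDN4 was 0.80 (FDR 0.00937). The HaCaT siCTRL library was at 66.7 CPM, inside the range of the YAP5SA libraries, and with both controls of the line used the HaCaT change was 0.52 (FDR 0.0905). The simple-epithelium keratins KRT8, KRT18 and KRT19 summed to 2158 to 2695 CPM with YAP5SA in HaCaT against 1261 CPM with the empty vector, and to 1013 to 1100 against 1046 CPM in A431. KRT8 and KRT18 rose in HaCaT (log2 1.46 for both, FDR 0.00265 and 0.00216), whereas KRT19 lay below the empty vector in 3 of 3 libraries without passing (mean 319.5 against 473 CPM, log2 -0.57, FDR 0.223). Whether they bear on CLDN4 was not tested.

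Of the other membrane proteins, CLDN7 was at 131 CPM with the empty vector in HaCaT and at 155, 131 and 162 CPM with YAP5SA, and CLDN1 was at 161 CPM against 159.8, 168 and 157 CPM. OCLN lay below the empty vector in HaCaT, at 109.9, 122 and 108 against 142 CPM (log2 -0.33, SE 0.13, FDR 0.107), and on both sides of it in A431, at 101, 122 and 126 against 105 CPM. Without A431 YAP5SA replicate 1 the HaCaT value of OCLN had an FDR of 0.0438. TJP1 was at 323 to 353 CPM with YAP5SA against 273 CPM in HaCaT (log2 0.31, SE 0.18, FDR 0.253) and at 164, 237 and 222 against 181 CPM in A431. Leaving out that same A431 library, the lowest of its triplicate, gave TJP1 an FDR of 0.0438 over both lines.

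Among the polarity genes, LLGL2 had the largest log2 fold change of the 9 after CLDN4 with YAP5SA in HaCaT, but it rested on libraries that disagreed. It was at 10.7 CPM with the empty vector and at 21.7, 11.5 and 22.7 CPM with YAP5SA (log2 0.80, SE 0.37, FDR 0.157). Replicate 2, which had the highest YAP1 level, lay at the control; without it the value was 1.05 (FDR 0.0304). The HaCaT siCTRL library was at 40.4 CPM, above all 3, and with both controls of the line pooled LLGL2 turned to -0.45 (FDR 0.503). PARD6B was at 46.2 CPM against 56.8, 67.5 and 53.6 CPM (log2 0.36, SE 0.14, FDR 0.105) and PARD3 at 132 CPM against 121, 115 and 114 CPM (log2 -0.18, SE 0.13, FDR 0.359). CRB3 was at 5.89 CPM against 6.66, 8.90 and 7.47 CPM. In A431 the log2 values of these 4 genes lay between -0.35 and 0.06.

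The test of the difference between the lines was passed by 0 of the 9 genes for siYAP, beside 0.17% of tested genes, and by 0 of 9 for YAP5SA, beside 0.0886% (edgeR). At an unadjusted p under 0.05 there was 1 gene for siYAP (OCLN) and 3 for YAP5SA (CLDN4, OCLN and LLGL2), and DESeq2 passed 0 and 1 (CLDN4). The YAP5SA effect on CLDN4 was 1.12 higher in HaCaT on the log2 scale (SE 0.24, FDR 0.0563). It passed without A431 YAP5SA replicate 1 (FDR 0.0272) and without HaCaT YAP5SA replicate 1 (0.0135) or 2 (0.0344), and DESeq2 gave 0.00291. That for OCLN was -0.48 (SE 0.19, FDR 0.168), or 0.048 without A431 YAP5SA replicate 1.

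Set against each other, the YAP5SA and siYAP triplicates differed in many of these genes, but so did their controls. The YAP5SA libraries differ from the siYAP libraries in YAP and also in receiving a vector rather than an siRNA, and these cannot be told apart in this comparison. In A431 4 of 9 genes passed, beside 34.6% of tested genes: CLDN1, PARD3 and PARD6B were lower with YAP5SA and OCLN higher. In HaCaT 7 of 9 passed, beside 60% of tested genes: CLDN4 and CLDN7 were higher, and CLDN1, OCLN, PARD3, PARD6B and LLGL2 lower.

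CLDN1 differed most, at 706, 383 and 405 CPM with YAP5SA in A431 against 1182 to 1309.6 CPM with siYAP, without overlap (log2 -1.34, SE 0.19, FDR 0.000197). In HaCaT the log2 fold change was -2.40 (SE 0.20, FDR 2.74e-07), or 5.29-fold lower. The controls showed the same gap: the empty vector library had 4.25-fold less CLDN1 than the siCTRL library in A431 (533 against 2267 CPM) and 5.94-fold less in HaCaT (161 against 954 CPM). With each arm first set against its own control the difference turned positive in sign, 0.75 in A431 (FDR 0.284) and 0.17 in HaCaT (FDR 0.827), and did not pass.

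LLGL2 in HaCaT was 2.56-fold lower with YAP5SA than with siYAP (log2 -1.36, SE 0.25, FDR 0.000298), at 11.5 to 22.7 against 42.8 to 50.9 CPM. Its empty vector library was 3.77-fold below siCTRL. PARD3 was lower with YAP5SA in both lines, at 127 to 142 against 192 to 225 CPM in A431 (log2 -0.62, SE 0.09, FDR 0.000302) and at 114 to 121 against 195 to 229 CPM in HaCaT (log2 -0.83, SE 0.10, FDR 5.1e-06). The PARD3 controls stood in the same order, at 135 against 189 CPM and at 132 against 190.3 CPM. PARD6B was likewise lower, by 0.39 on the log2 scale in A431 (FDR 0.00835) and by 0.58 in HaCaT (FDR 0.000173), its HaCaT controls standing 1.99-fold apart; its counts were fractional in 15 of 16 libraries.

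CLDN7 and CLDN4 in HaCaT, and OCLN in A431, differed in the opposite direction to their controls. CLDN7 was at 131 to 162 CPM with YAP5SA and at 86.8 to 107 CPM with siYAP in HaCaT (log2 0.65, SE 0.12, FDR 0.00035), while its empty vector library was 1.13-fold below siCTRL. CLDN4 was 0.44 higher (SE 0.12, FDR 0.00532), with controls 1.65-fold apart the other way. OCLN in A431 was 0.31 higher (SE 0.10, FDR 0.021). With each arm set against its own control these were the ones that still passed, at 1.16 for CLDN4 in HaCaT (FDR 0.0123), 0.83 for CLDN7 in HaCaT (FDR 0.049, close to the threshold) and 1.08 for OCLN in A431 (FDR 0.0214). These corrected values rest on the same single siCTRL and empty vector libraries as the comparisons with controls above. They are therefore no separate evidence for those calls. The uncorrected A431 call of OCLN was lost when any 1 of 5 of the 6 A431 treated libraries was left out, with FDR values from 0.0559 to 0.104. In HaCaT OCLN was 0.35 lower with YAP5SA (SE 0.10, FDR 0.00561), as it also was in the controls, and the corrected value was 0.03 (FDR 0.954). CLDN7 in A431 just missed the threshold (0.31, SE 0.12, FDR 0.0629), and passed without A431 siYAP replicate 2 (0.0431), A431 YAP5SA replicate 1 (0.0498) or HaCaT YAP5SA replicate 2 (0.0414). TJP1 in HaCaT (-0.22, FDR 0.13) passed without A431 YAP5SA replicate 1 (0.0343).

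Between the controls themselves, with 1 library a side and so no test, 7 of the 9 genes were lower with the empty vector than with siCTRL in A431 and 9 of 9 in HaCaT. A gap of over 2-fold was seen for 1 of 9 in A431 (CLDN1), beside 10.9% of all genes compared, and for 2 of 9 in HaCaT (CLDN1 and LLGL2), beside 38.4%. The smallest p of an exact two-sided permutation test is 0.25 for 3 libraries against 1 and 0.1 for 3 against 3, so single values were tested only through the fit over all genes.

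**Figure D3:**
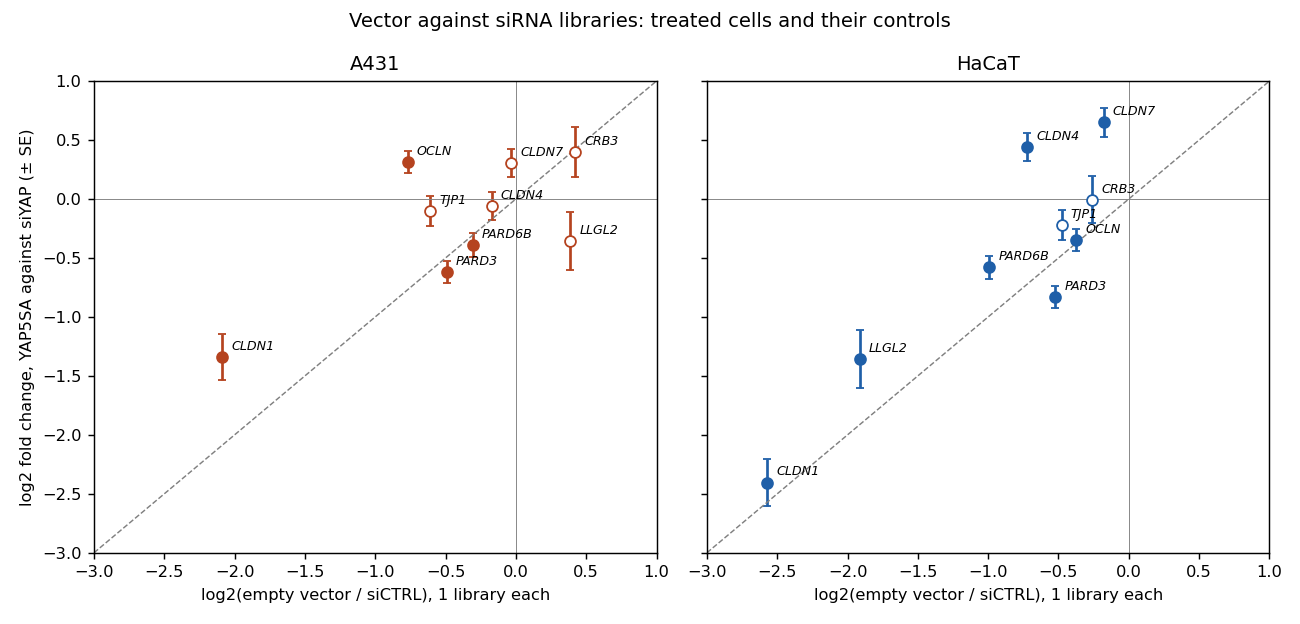
Log2 ratio of the empty vector to the siCTRL library (horizontal, 1 library each, no test) against the log2 fold change of YAP5SA against siYAP (vertical, ± SE) for the 9 genes in each line, with the line of equality dashed and filled symbols for genes that passed. CLDN1 lies far down and left in both lines, at -2.09 and -1.34 in A431 and at -2.57 and -2.40 in HaCaT, and CLDN7 lies above 0 on the vertical axis only.

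The lines differed in most of these genes, as they did in most of all tested genes. YAP1 itself was higher in HaCaT, by 1.94 on the log2 scale with siYAP and by 2.38 with YAP5SA, and its part was not tested. With siYAP 8 of 9 passed between HaCaT and A431, all but PARD3, beside 58.5% of tested genes, and with YAP5SA 5 of 9, beside 50.2%. CLDN1 and CLDN4 were lower in HaCaT with both treatments, CLDN4 at 50.8 to 60.4 CPM against 121 to 136 CPM with siYAP (log2 -1.20, SE 0.12, FDR 1.38e-06). CRB3, CLDN7 and TJP1 were higher in HaCaT with both, CRB3 by 1.26 with siYAP (SE 0.21, FDR 0.000124) and by 0.86 with YAP5SA (SE 0.20, FDR 0.00287), and TJP1 by 0.83 and 0.71.

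OCLN, PARD6B and LLGL2 were higher in HaCaT with siYAP and did not pass with YAP5SA. For OCLN the log2 values were 0.62 (SE 0.10, FDR 6.83e-05) and -0.04 (SE 0.10, FDR 0.753), and for LLGL2 0.90 (SE 0.25, FDR 0.00552) and -0.10 (SE 0.25, FDR 0.751). Whether these line differences themselves differed between treatments was not tested. With siYAP the calls of CLDN1, CLDN7 and PARD6B each depended on single libraries. CLDN1 had an FDR of 0.071 when A431 siYAP replicate 1 was left out and 0.0862 for HaCaT siYAP replicate 1. CLDN7 had 0.083 and 0.0517 without A431 siYAP replicates 1 and 3, and 0.129 without HaCaT siYAP replicate 1. PARD6B had 0.065 when A431 siYAP replicate 2 was left out and 0.0535 for HaCaT siYAP replicate 1.

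Beyond the 9, 72 other junction and polarity genes were listed from textbook knowledge, with earlier results of these data known. Of these, 50 were abundant enough to test. With siYAP 4 of the 50 passed in each line, or 8%, beside 5.6% of all tested genes in A431 and 5.67% in HaCaT. With YAP5SA 0 of 50 passed in A431, beside 0%, and 7 of 50 in HaCaT, or 14%, beside 13.6%. Over both lines 8 of 50 passed with siYAP (4 in each direction), or 16% beside 13%, and 1 with YAP5SA, or 2% beside 2.04%. For the difference between lines 0 passed for either treatment, beside 0.17% and 0.0886%. The median log2 fold change of the 50 was 0.21 in A431 and 0.16 in HaCaT with siYAP, against 0.03 in both lines over all tested genes, and -0.06 and -0.07 with YAP5SA, against 0.02 and 0.01. With both controls of a line pooled, 9 of the 50 passed with siYAP in HaCaT, and with YAP5SA over both lines 2 passed, ARHGEF2 not among them.

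Of the genes that fell with siYAP, CDC42, LIN7C and CXADR did so in both lines. CDC42, the small GTPase that binds PAR6 and activates the PAR complex, was at 205 to 225 CPM with siYAP against 468 CPM in A431 and at 242 to 256 against 573 CPM in HaCaT (log2 -1.11 and -1.21, FDR 0.000325 and 0.000148). LIN7C, a small adaptor of the Crumbs complex, fell by 1.16 and 1.35, and CXADR, an immunoglobulin-like junction receptor, by 0.98 and 0.75. All 6 siYAP libraries lay below their control for each of the 3. The counts of LIN7C and CXADR, and most of those of CDC42, were fractional, so these levels carry the uncertainty described for OCLN. ARHGEF2 was 1.41-fold higher with siYAP in A431 (68.2 to 75.4 against 50.1 CPM, FDR 0.0406). That call was lost with the count filter dropped, with each line fitted alone and with pooled controls. It was also lost without A431 siYAP replicate 1, 2 or 3. In HaCaT ARHGEF2 was at 72.8 to 79.0 against 85.5 CPM and did not pass.

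With YAP5SA in HaCaT the genes that rose were LSR, a tricellular junction protein, from 11.9 to between 22.7 and 28.7 CPM (log2 1.08, FDR 0.0101), TJAP1 (0.94, FDR 0.0226) and ARHGEF2 (0.84, FDR 0.00348). CLDN8, a claudin at 0.49 to 2.84 CPM in A431, fell most, to 33.2, 8.61 and 6.19 from 76.4 CPM (log2 -2.25, FDR 0.039). It was not among the 9 that passed without HaCaT YAP5SA replicate 2, whereas the other 6 were. The CLDN8 call was also lost with DESeq2, with each line fitted alone, and without A431 siYAP replicate 1, 2 or 3. Without A431 YAP5SA replicate 1 the count over both lines was 5 (F11R, LSR, TJAP1, ARHGEF2 and CDC42) in place of 1, and the difference between lines was then passed by 3 (ARHGEF2, CDC42 and DLG1), or by ARHGEF2 alone without HaCaT YAP5SA replicate 2. F11R (JAM-A) fell by 0.65, from 685 to between 407 and 475 CPM, and CXADR by 0.61. Neither F11R nor CXADR passed with each line fitted alone, and the counts of F11R were fractional, as for OCLN. The HaCaT siCTRL library lay inside the YAP5SA range for CXADR (102 CPM, range 94.1 to 122) and for TJAP1 (17.7 CPM, range 15.4 to 18.6). With both controls of the line pooled, CXADR and TJAP1 did not pass in HaCaT. CDC42 also passed as lower in HaCaT with YAP5SA, at 425 to 452 against 666 CPM. Its levels in those libraries thus stood below the empty vector, as they stood below siCTRL with siYAP.

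**Figure D4:**
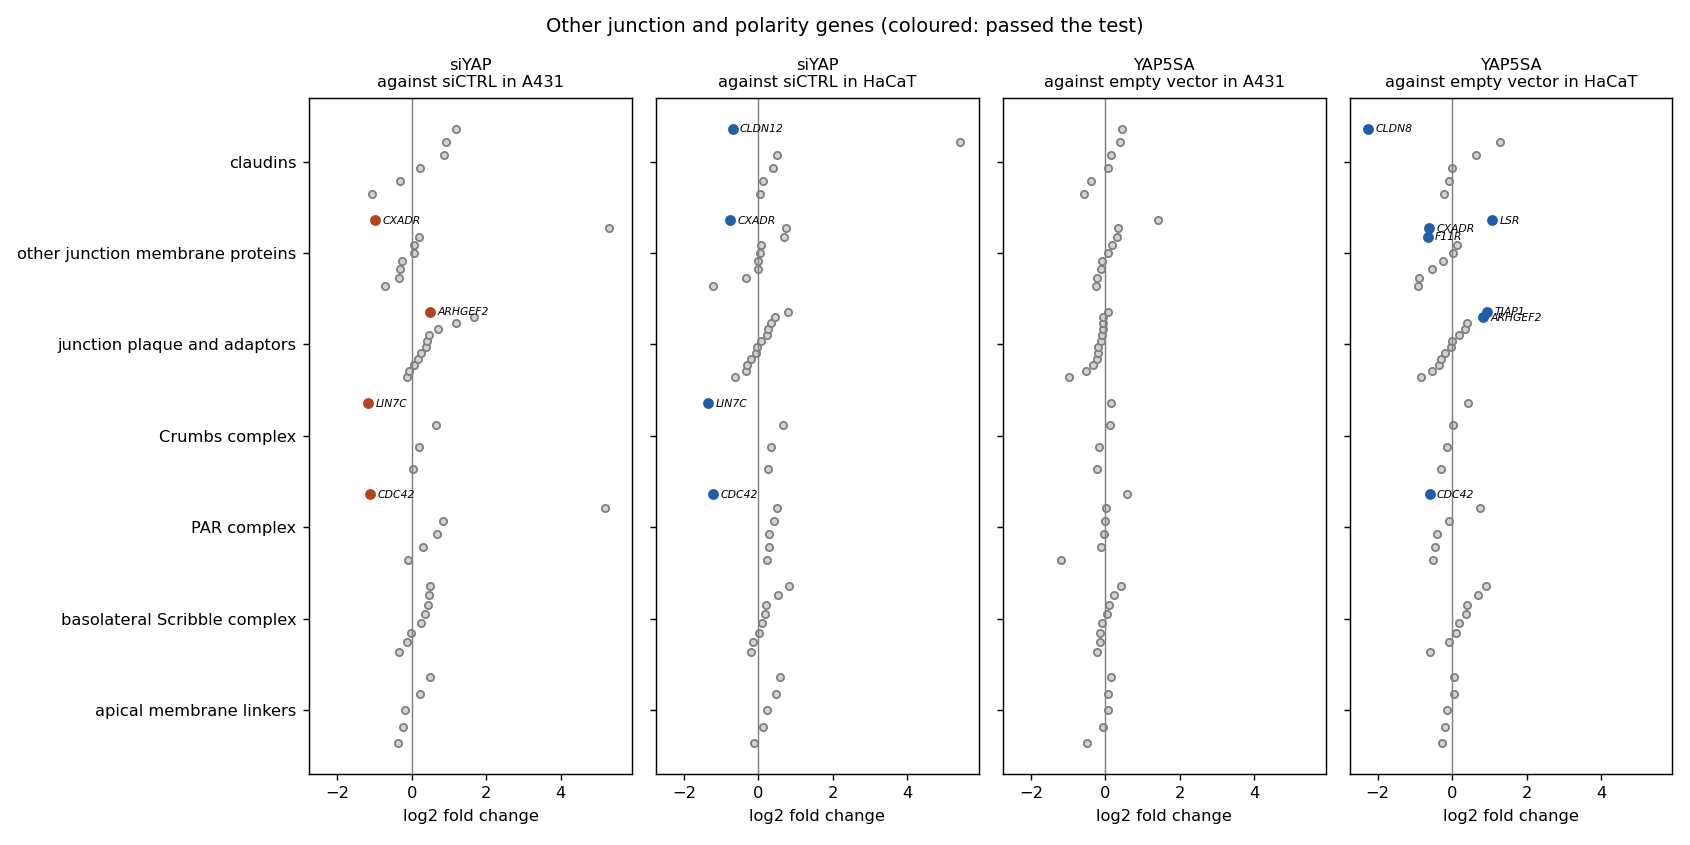
Log2 fold change of the 50 other junction and polarity genes by group, each against the single control of its arm and line; coloured and named points passed the test. LIN7C, CDC42 and CXADR are left of 0 with siYAP in both lines, no point is coloured with YAP5SA in A431, and the grey points near 5 with siYAP are genes whose fitted value did not pass.

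Across the 16 libraries, after each line's mean was taken out, CLDN1 and PARD3 followed each other most closely among the 36 pairs of the 9 genes (Pearson r = 0.94), then CLDN1 and PARD6B (0.88) and PARD3 and PARD6B (0.87). CLDN7 and PARD3 ran opposite (-0.77). These are descriptions without a test, since the libraries share line, arm and control, and within each line every vector library lay below every siRNA library for CLDN1 and PARD3. Over all tested genes, the pattern most like CLDN1 was that of ITPRIPL2 (0.971), the most like PARD3 was PHF3 (0.985), the most like PARD6B was METTL21B (0.969) and the most like LLGL2 was AGRN (0.985). For OCLN it was FBXO28 (0.943), for TJP1 PAK2 (0.924), for CLDN7 ECHDC3 (0.921), for CLDN4 RPAP1 (0.868) and for CRB3 FAM132B (0.816).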

How the data were processed

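The authors prepared total RNA, sequenced it as paired reads, trimmed the reads and quantified RefSeq gene models with RSEM (version 1.2.11 and genome build hg19 in the submitters' processing notes), and deposited 1 table of expected counts per gene. These estimated counts are neither scaled nor filtered. Of 26229 listed genes 4970 had no count, and 28 symbols had been turned into dates. Groups and replicate numbers came from the sample labels.

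After rounding, the counts were tested with edgeR 4.0.16 (R 4.3.3, limma 3.58.1). The filter was a mean of more than 10 counts per library, which 14673 genes passed, and TMM factors ran from 0.914 to 1.07. A single quasi-likelihood model held the 8 groups and left 8 residual degrees of freedom. Benjamini-Hochberg adjustment covered every tested gene of a comparison. To pass, a gene needed an FDR below 0.05 together with a logCPM over 1. The scripts were tested on simulated data. The standard error is the log2 fold change divided by the root of F. Totals per library set a floor of 3 counts for an undetected gene, which covers counting error only. Same-numbered treated libraries were checked for pairing by the correlation of their deviations from the group means. Every r was over 0.1 only between the YAP5SA groups of A431 and HaCaT (0.373, 0.144 and 0.154 for replicates 1 to 3), a pairing that comes from the data, since the labels name no shared batch. Over all 18 pairs r ran from -0.048 to 0.373, and 8 of 12 libraries correlated best with their own number. DESeq2 1.42.0 and the other alternatives are given at the end.

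The 9 genes, the lists of other junction genes and cell markers, and the tests were chosen with earlier results of these data known. Named genes outside the 9 were the up to 3 highest rises and 3 deepest falls of the wider list in each comparison with its own control, YAP1, EGFR and the gene most like each of the 9 by Pearson correlation of log2(CPM + 1). CDC42 with YAP5SA is outside that rule and was named after its value was seen. Lengths and 3' untranslated regions came from the GENCODE transcript with the longest coding sequence. Promoters came from RefSeq, in GRCh38.p14. Values per kb use that 1 length, not the isoforms expressed.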

Additional observations from a re-analysis of the deposited data

Results flagged for a closer look

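The YAP5SA effects on CLDN4, LLGL2 and CRB3 stood out because all 3 A431 libraries lay below the empty vector library of their line while all 3 HaCaT libraries lay above theirs. On the log2 scale the effect in HaCaT exceeded that in A431 by 1.12 for CLDN4 (SE 0.24, FDR 0.0563), by 1.145 for LLGL2 (SE 0.50, FDR 0.203) and by 0.637 for CRB3 (SE 0.41, FDR 0.37) in edgeR's test of the difference, which none of the 3 passed. Each direction rests on 1 empty vector library per line.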

How the results depend on the processing

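The calls were repeated with RLE size factors, with the count filter dropped or required of every library, by FDR without the logCPM limit, with a log2 fold change of 1 or more required, by DESeq2, with the lines fitted separately, with the siCTRL and empty vector libraries of a line pooled, without each treated library in turn, with a replicate block and, for YAP5SA against siYAP, with each arm first set against its own control. Of the values for single genes, 1986 kept their direction and side of the threshold, 65 changed sign without passing in either setting, 49 lost a call, 19 gained one and 5 reversed. The 5 reversals all came from setting each arm against its own control: in A431 CLDN1 (0.75), and in HaCaT CLDN1 (0.17), OCLN (0.029), PARD6B (0.41) and LLGL2 (0.56). That setting left 1 call among the 9 genes in A431 and 2 in HaCaT. Requiring a log2 fold change of 1 or more in size left 0 calls with siYAP in A431, in HaCaT and over both lines and 0 with YAP5SA in HaCaT; it left 1 and 2 for YAP5SA against siYAP in A431 and HaCaT, and 2 and 1 between lines with siYAP and with YAP5SA. With pooled controls the calls were 0 for siYAP in A431, 0 for YAP5SA in HaCaT, 1 for siYAP over both lines and 1 for YAP5SA over both lines. DESeq2 gave 2 for siYAP in A431 and 1 for the YAP5SA effect between lines, where more than 10 counts in every library also gave 1, and each line fitted alone gave 0 for siYAP in HaCaT. The causes of these shifts were not tested.

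Leaving out 1 library gave 1 to 2 calls for siYAP in A431, 0 to 1 in HaCaT and 2 to 3 over both lines, 0 to 0 for YAP5SA in A431, 1 to 2 in HaCaT and 0 to 1 over both lines, 0 to 0 and 0 to 2 for the line differences in the siYAP and YAP5SA effects, 3 to 5 and 7 to 8 for YAP5SA against siYAP in A431 and HaCaT, and 5 to 8 and 5 to 5 between lines with siYAP and with YAP5SA. The single control libraries could not be left out. With the replicate number as a block, 4, 7, 8 and 5 of the 9 genes passed in the comparisons of treated groups, as without it. The block thus changed no count there, including between the YAP5SA groups of the lines, where the numbers were taken to pair the libraries. In the 5 other pairs of treated groups, where at least 1 same-numbered pair had an r of 0.1 or less, the libraries share only a number. No paired analysis was possible against the controls because they share only 1 number with the treated groups. The 3' untranslated region letters were found in the same 4 of the 9 genes when any protein-coding transcript was counted, a setting chosen after seeing the data.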
